A study of Oncorhynchus mykiss with 6 samples.

Results

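The enzymes of de novo purine synthesis were described in dorsal skin of yellow mutant rainbow trout, Oncorhynchus mykiss. Their rows were taken from the deposited gene table by symbol, ignoring case and a copy ending. The symbols were PRPS1, PPAT, GART, PFAS, PAICS, ADSL, ATIC, ADSS1, ADSS2, ADSSL1, GMPS, IMPDH1 and IMPDH2. The rule found 26 of 43862 rows, of which 24 passed the filter on low values and were tested. No row carried the symbol PAICS or ADSSL1. A pair of rows with the symbol AIRC, another name of PAICS, and a pair named adss1c lie outside the rule, and their values are given apart from the members.

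RNA-seq was run on 6 libraries of total RNA, 3 from skin at 1 day of age and 3 at 90 days, all from yellow mutant fish. The labels give no treatment, no other strain and no wild type, and do not say from which event the age was counted. The series set out to find genes of colour formation over 3 stages of development, and a stage other than these 2 ages is not analysed here. Whether each replicate came from its own fish is not stated, and the p-values therefore rest on the spread among these libraries alone, which could be technical.

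De novo synthesis builds the purine ring on phosphoribosyl pyrophosphate (PRPP), the activated ribose that PRPP synthetase makes, and ends in inosine monophosphate (IMP). IMP is then turned into adenosine or guanosine monophosphate (AMP or GMP) on separate branches. In fish skin, iridophores are pigment cells that reflect light with stacked purine crystals, mainly of guanine, so the pathway feeds both nucleic acids and pigment.

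Along the pathway, the direction of the rows differed between steps and, on the AMP and GMP branches, also within them. All 6 rows of PPAT, GART, Pfas and ATIC, which lie between PRPP and IMP, rose at day 90, by 0.95 to 1.66 on the log2 scale. Of the 4 rows of PRPS1, which supplies PRPP, 3 fell. Both rows of prps2, the other catalytic subunit of PRPP synthetase and outside the rule, rose (1.26 and 0.51). Of ADSL, 0 of 2 rows passed the test. On the AMP branch 1 of 6 tested rows rose and 1 fell, with log2 fold changes from -0.50 to 2.03. On the GMP branch 3 of 6 rose and 1 fell, from -1.32 to 1.29. In all, 10 of 24 tested members rose and 5 fell, so 15 were called, where 67.9% of the 29436 rows tested were called, 32.5% higher and 35.4% lower at day 90. The share of members called was near that background. The median log2 fold change was 0.15 over the members and -0.03 over all rows tested. The authors' deposited table had a false discovery rate under 0.05 for 9 members in the higher direction and 6 in the lower. Direction was read from the deposited log2 value, which need not share the scaling of the false discovery rate. For ADSS2 110533991 these were -0.45 and 0.78. The 6 include GMPS MSTRG.38188 (log2 value -0.071), which is among the 10 members that rose here.

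Levels are given as normalised FPKM, the deposited FPKM (fragments scaled to transcript length and library size) divided by the library's TMM factor, so that they can be set beside each other across rows and libraries. Changes are log2 fold changes of day 90 over day 1 from edgeR's quasi-likelihood test on counts, with p-values adjusted over all rows tested. The size of a change, and for some rows its direction, depended on how the libraries were scaled. With library size alone the median of all rows was -0.43, and 28.5% of calls were higher in place of 47.9%. Scaled to ribosomal protein genes the median was -0.61 with 20.7% higher, and scaled to a list of epidermis genes it was -1.35 with 7.66% higher. In bulk tissue, fewer cells of a type and less RNA per cell cannot be told apart.

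Total counts ran from 16157312 to 18960866 per library, and replicates of an age correlated over tested genes more closely with each other (r of at least 0.974) than with the other age (r of at most 0.681). The tissue make-up of the libraries differed between the ages. Epidermis genes took 1.02 to 1.08% of all counts in skin of day 1 and 3.41 to 4.43% in that of day 90, with no row for krt4, krt5, krt12, krt15 or epcam. At day 1 the libraries also held transcripts of other organs, with neural markers at 0.269 to 0.309% and lens and retina markers at 0.286 to 0.362%, against at most 0.0549% and 0.0011% at day 90. Of these lists, 43 of 48 neural rows and 30 of 31 lens and retina rows fell, and their part in the results on the enzymes was not tested. The neural list had no row for syn1, and the lens and retina list none for gnat1 or opn1sw. Muscle markers are given with ADSS1, and markers of pigment cells and of the cell cycle after the enzymes.

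**Figure D1:**
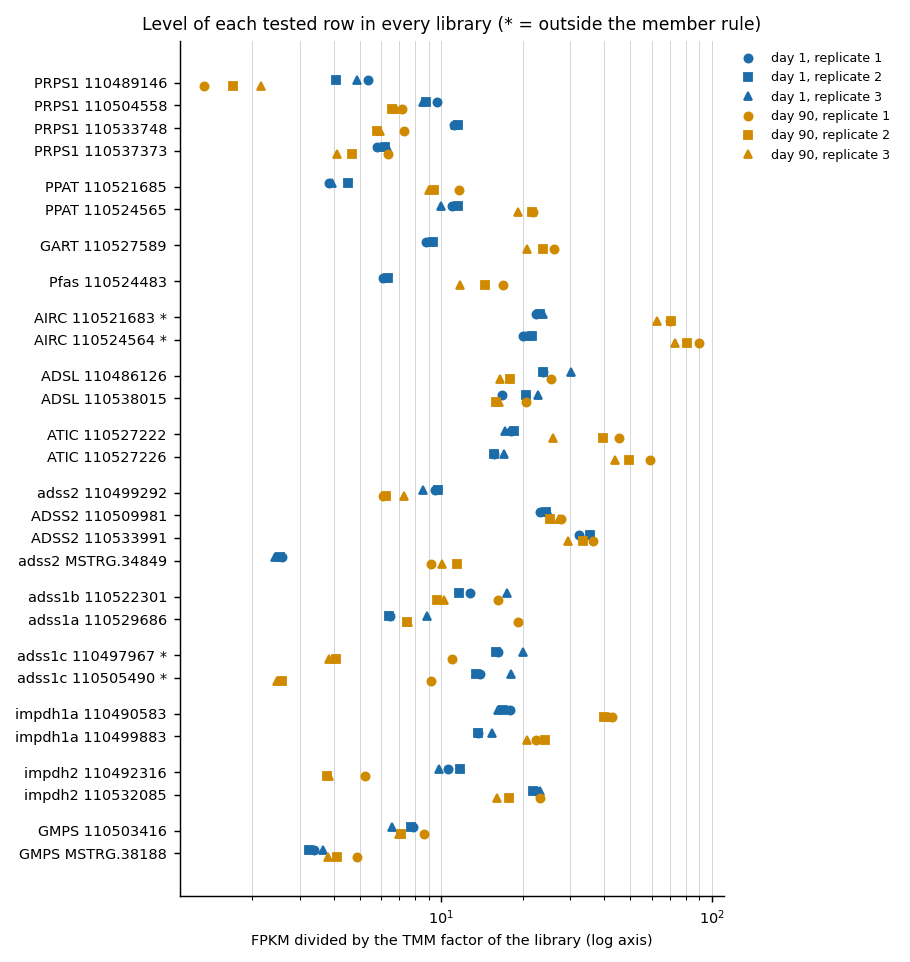
Level of each tested row in every library, as FPKM divided by the library's TMM factor on a log axis. Blue symbols are the 3 libraries of day 1 and orange symbols the 3 of day 90, with the marker shape giving the replicate, and rows marked with an asterisk (AIRC, adss1c) lie outside the member rule. The orange symbols of PPAT, GART, Pfas, AIRC and ATIC lie to the right of the blue ones, and those of 3 of the 4 PRPS1 rows to the left.

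PRPS1 encodes a catalytic subunit of PRPP synthetase, and the table held 4 rows of it. PRPS1 110489146 was at 5.36, 4.09 and 4.87 normalised FPKM at day 1 and at 1.33, 1.70 and 2.15 at day 90. Each day 90 library lay below each day 1 library. Its log2 fold change was -1.47 (SE 0.19, adjusted p = 9.08e-05). PRPS1 110533748 was at 11.2, 11.5 and 11.3 at day 1 and at 7.27, 5.80 and 5.92 at day 90, again with no overlap, and fell by 0.84 on the log2 scale (SE 0.12, adjusted p = 0.000164). PRPS1 110504558 fell less, from 8.99 ± 0.564 to 6.83 ± 0.287 (SD, n = 3; edgeR adjusted p = 0.00846). The last row, PRPS1 110537373, did not pass, with 6.09 ± 0.263 at day 1 and 5.04 ± 1.17 at day 90 (SD, n = 3; edgeR adjusted p = 0.147). Without day 90 replicate 1, whose level of 6.35 was the highest of all, that row was called lower (log2 fold change -0.50, adjusted p = 0.0051). Summed over the 4 rows, PRPS1 was at 31.2 ± 0.695 at day 1 and 19.9 ± 1.87 at day 90 (SD, n = 3; log2 fold change -0.68, edgeR adjusted p = 0.000377), and it was lower under all the scalings tried.

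The other catalytic subunit, PRPS2, had a pair of rows, both of which rose. The row prps2 110495813 went from 18.0, 18.5 and 18.1 normalised FPKM to 47.7, 41.9 and 41.6, and prps2 110527434 from 26.8, 26.5 and 26.7 to 39.1, 38.7 and 36.2. The ages did not overlap in either row. Their log2 fold changes were 1.26 (SE 0.10, adjusted p = 5.11e-06) and 0.51 (SE 0.10, adjusted p = 0.00132). The rise of prps2 110495813 was lost with epidermis scaling (-0.039), and that of prps2 110527434 was lost with library size alone (0.11) and turned with ribosomal (-0.073) and epidermis scaling (-0.80). The balance between the 2 subunits does not depend on the scaling: the ratio of summed prps2 to summed PRPS1 within a library was 1.40, 1.47 and 1.45 at day 1 and 3.93, 4.30 and 4.10 at day 90. The ratios did not overlap between the ages and their geometric means differed 2.85-fold. Among the associated proteins, which are known in mammals as inhibitory partners of the synthetase, PRPSAP1 110486555 fell from 5.80 ± 0.871 to 2.35 ± 0.165 (SD, n = 3; edgeR adjusted p = 3.28e-05). PRPSAP2 110517242, at 2.17 to 2.41 normalised FPKM at day 1, had 0 counts in all 3 day 90 libraries, which makes it at least 47.1-fold lower when that age is given a floor of 3 counts. The rows PRPSAP2 110517295 and 118959010, with the same counts as each other, were at 2.82 ± 0.557 at day 1 and 3.79 ± 0.655 at day 90 (SD, n = 3) and did not pass the edgeR test (adjusted p = 0.122). Of the 9 tested rows of prps2 and the associated proteins, 3 rose and 3 fell, where 32.5% of all rows tested rose and 35.4% fell.

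PPAT, the amidophosphoribosyltransferase, carries out the first committed step of the pathway. PPAT 110521685 was at 3.84, 4.52 and 3.94 normalised FPKM at day 1 and at 11.6, 9.43 and 8.99 at day 90. PPAT 110524565, the more abundant row, was at 11.0, 11.5 and 9.94 at day 1 and at 21.8, 21.6 and 19.3 at day 90. In both rows every day 90 library was above every day 1 library. Their log2 fold changes were 1.29 (SE 0.14, adjusted p = 2.92e-05) and 0.95 (SE 0.11, adjusted p = 3.86e-05). The call of PPAT 110524565 was lost with ribosomal scaling (0.36, adjusted p = 0.0647), and both rows were near or below 0 with epidermis scaling (-0.0064 and -0.35). In the annotation used for names, each PPAT row lies beside an AIRC row.

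GART, which carries out 3 of the reactions on the way to IMP, had 1 row. GART 110527589 was at 8.77, 9.31 and 9.06 normalised FPKM at day 1 and at 26.1, 23.7 and 20.8 at day 90. Pfas 110524483, the amidotransferase that acts between the reactions of GART, was at 6.07, 6.36 and 6.19 at day 1 and at 16.9, 14.5 and 11.8 at day 90. Both enzymes stood more than 1.5 times higher in the lowest day 90 library than in the highest of day 1, with the larger spread at day 90. The log2 fold change was 1.38 for GART (SE 0.11, adjusted p = 5.33e-06) and 1.21 for Pfas (SE 0.14, adjusted p = 3.9e-05). With epidermis scaling these values were 0.081 and -0.078, and neither passed.

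The AIRC rows, outside the member rule, carry the product name of the bifunctional enzyme of the following pair of reactions, and RefSeq names AIRC 110521683 as paics. AIRC 110521683 was at 22.4, 23.2 and 23.8 normalised FPKM at day 1 and at 70.4, 70.7 and 62.7 at day 90. AIRC 110524564 was at 20.1, 21.7 and 20.6 at day 1 and at 89.9, 80.9 and 72.9 at day 90. The day 90 levels of AIRC were the highest of any row of the pathway, and no libraries overlapped between the ages. Their log2 fold changes were 1.41 (SE 0.10, adjusted p = 2.24e-06) and 1.93 (SE 0.12, adjusted p = 8.09e-07). The second row passed under all the scalings tried, at 0.63 with epidermis scaling, and the first passed with all but that one (0.10, adjusted p = 0.639). Set against its neighbour in the genome, the summed AIRC level was 2.95 ± 0.213 times that of PPAT at day 1 and 4.82 ± 0.0489 times at day 90 (SD, n = 3).

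ADSL, the adenylosuccinate lyase, acts both on the way to IMP and on the AMP branch, and neither of its rows passed the test. ADSL 110486126 was at 23.8, 23.7 and 30.1 normalised FPKM at day 1 and at 25.4, 17.9 and 16.5 at day 90. ADSL 110538015 was at 16.8, 20.5 and 22.8 at day 1 and at 20.6, 16.0 and 16.4 at day 90. In each row, day 90 replicate 1 lay within the range of the day 1 libraries and the other day 90 libraries lay below it. The log2 fold changes were -0.38 (SE 0.17, adjusted p = 0.0818) and -0.18 (SE 0.15, adjusted p = 0.294). Without day 90 replicate 1 ADSL 110486126 was called lower, at -0.61 (adjusted p = 0.00229), and both rows were called lower with library size, ribosomal or epidermis scaling.

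ATIC, the bifunctional enzyme of the last reactions to IMP, had a pair of rows. ATIC 110527222 was at 18.1, 18.6 and 17.2 normalised FPKM at day 1 and at 45.3, 39.6 and 25.9 at day 90. ATIC 110527226 was at 15.7, 15.7 and 17.0 at day 1 and at 59.4, 49.5 and 44.0 at day 90. The rows were close at day 1, and at day 90 each library was above all of day 1, with replicate 1 the highest and replicate 3 the lowest in both. The log2 fold changes were 1.04 (SE 0.19, adjusted p = 0.000805) and 1.66 (SE 0.13, adjusted p = 3.94e-06). With epidermis scaling they were -0.24 and 0.36, and neither passed. Within a library, summed ATIC was 0.834, 0.777 and 0.646 times summed ADSL at day 1 and 2.28, 2.63 and 2.13 times at day 90, so ATIC was the lower of the 2 enzymes in every day 1 library and the higher in every day 90 library.

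**Figure D2:**
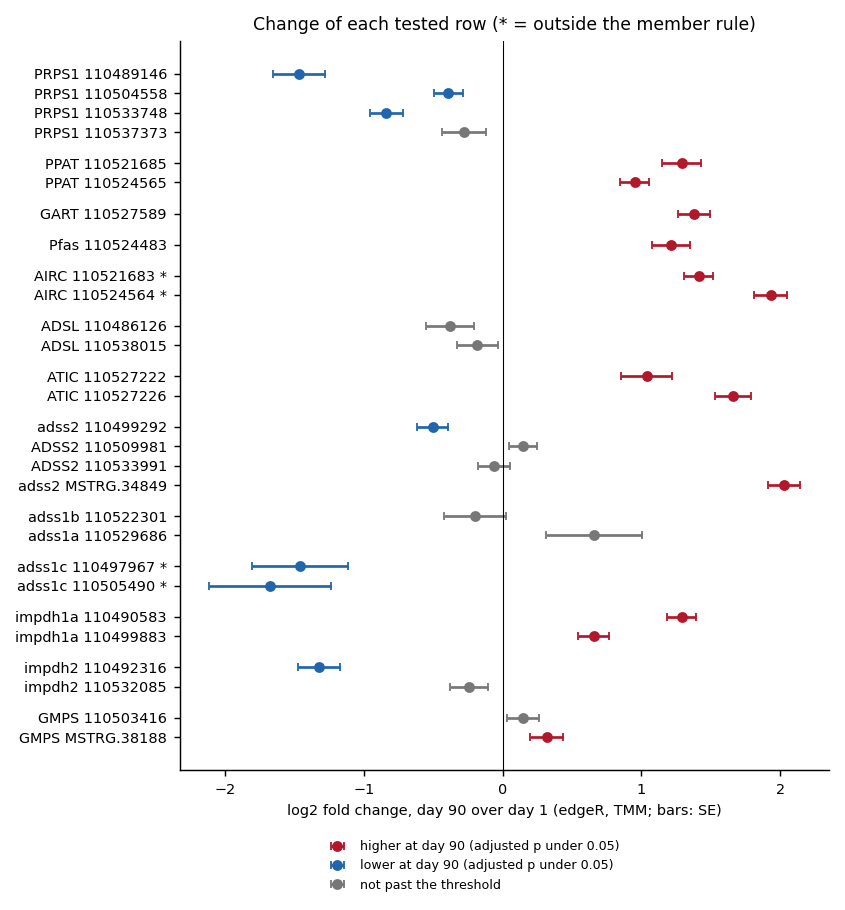
Log2 fold change of day 90 over day 1 for each tested row, from edgeR on counts with TMM factors, with bars for the standard error. Red is higher and blue lower at an adjusted p under 0.05, grey did not pass, and rows marked with an asterisk lie outside the member rule. PPAT, GART, Pfas, AIRC and ATIC are red at 0.95 to 1.93, while the rows of PRPS1 are blue or grey and those of ADSL grey.

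Adenylosuccinate synthetase opens the AMP branch. ADSS2, the form found in most tissues of mammals, had 4 rows, which moved in different directions. The assembled locus MSTRG.34849, named adss2, was at 2.59, 2.53 and 2.42 normalised FPKM at day 1 and at 9.18, 11.4 and 10.0 at day 90. It had the largest rise of any member (log2 fold change 2.03, SE 0.12, adjusted p = 5.25e-07) and was the 1 member still called higher with epidermis scaling (0.71). The row adss2 110499292 was at 9.44, 9.70 and 8.58 at day 1 and at 6.07, 6.23 and 7.25 at day 90, without overlap, and fell by 0.50 (SE 0.11, adjusted p = 0.00278). The more abundant ADSS2 110533991 (34.4 ± 1.88 and 33.0 ± 3.37, SD, n = 3) and ADSS2 110509981 (24.1 ± 0.895 and 26.7 ± 1.35, SD, n = 3) did not pass the edgeR test (adjusted p = 0.663 and 0.224). Both were called lower with library size alone (-0.46 and -0.25), ribosomal scaling (-0.65 and -0.43) and epidermis scaling (-1.36 and -1.17), and in both limma fits. Summed, ADSS2 was at 70.3 ± 2.52 at day 1 and 76.5 ± 2.51 at day 90 (SD, n = 3). The sum did not pass (log2 fold change 0.19, edgeR adjusted p = 0.146), and its direction turned with library size, ribosomal or epidermis scaling.

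ADSS1 is the form of skeletal muscle in mammals. The row adss1a 110529686 was at 6.47, 6.42 and 8.88 normalised FPKM at day 1 and at 19.3, 7.48 and 7.50 at day 90. Day 90 replicate 1 stood at more than 2 times any other library, and the remaining libraries of the ages overlapped. Its log2 fold change of 0.66 did not pass (SE 0.34, adjusted p = 0.116), and was 0.036 without day 90 replicate 1 (adjusted p = 0.852), though it passed without day 90 replicate 3 (0.85, adjusted p = 0.0486). The row adss1b 110522301 was at 12.8, 11.7 and 17.5 at day 1 and at 16.2, 9.67 and 10.3 at day 90 and did not pass (-0.20, adjusted p = 0.446). Without day 90 replicate 1 it was called lower (-0.49, adjusted p = 0.0282).

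The adss1c rows, outside the member rule, fell from 17.4 ± 2.30 to 6.31 ± 4.05 (adss1c 110497967, SD, n = 3; edgeR adjusted p = 0.00446) and from 15.1 ± 2.56 to 4.74 ± 3.84 (adss1c 110505490, SD, n = 3; edgeR adjusted p = 0.00757). In both, day 90 replicate 1 was between the day 1 libraries and the other libraries of day 90. Muscle markers made up 3.54, 3.57 and 4.33% of a library's counts at day 1 and 1.76, 0.517 and 0.503% at day 90, so the same day 90 library was the highest of its age. Of 66 muscle rows tested, 40 fell and 8 rose, with no row for acta1, ckma, ckmb or pvalb. Summed, adss1a and adss1b had a log2 fold change of 0.14 with all libraries and -0.30 without day 90 replicate 1. Neither passed the threshold. With the adss1c rows added, the sum went from 53.8 ± 9.36 to 34.5 ± 18.3 normalised FPKM (SD, n = 3). Its log2 fold change of -0.70 did not pass either (edgeR adjusted p = 0.0759). The part of muscle tissue in the ADSS1 values was not tested.

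**Figure D3:**
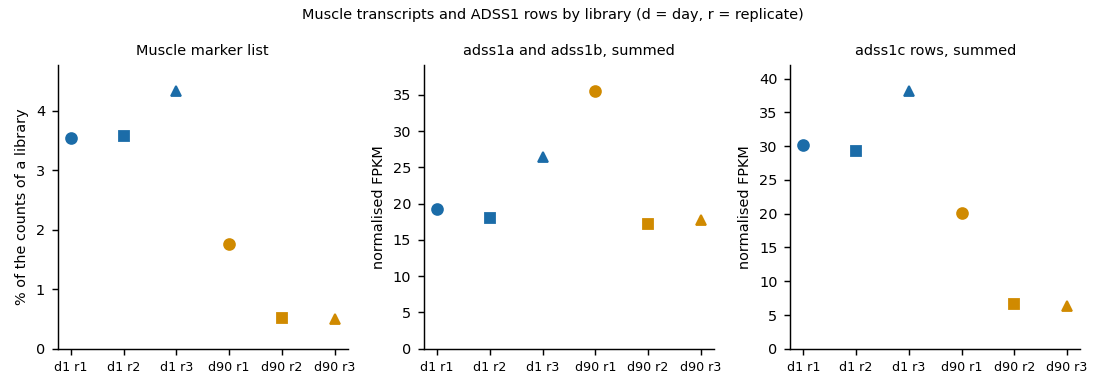
Share of the counts of a library in muscle marker genes (left, in percent), and summed normalised FPKM of adss1a with adss1b (middle) and of the adss1c rows (right), for each of the 6 libraries. Day 90 replicate 1 (d90 r1) is the highest of the 3 libraries of its age in each panel, with muscle markers at 1.76% against 0.517 and 0.503%.

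IMP dehydrogenase, which opens the GMP branch and is its rate-limiting step, is encoded by IMPDH1 and IMPDH2. The row impdh1a 110490583 was at 18.0, 16.9 and 16.3 normalised FPKM at day 1 and at 42.6, 39.9 and 41.8 at day 90. The row impdh1a 110499883 was at 13.7, 13.7 and 15.4 at day 1 and at 22.4, 24.1 and 20.7 at day 90. In neither row did the ages overlap, and the 3 day 90 libraries of the first row were close together. Their log2 fold changes were 1.29 (SE 0.11, adjusted p = 5.15e-06) and 0.66 (SE 0.11, adjusted p = 0.000499). The call of impdh1a 110499883 was lost with ribosomal scaling (0.078, adjusted p = 0.586), and with epidermis scaling the rows were at -0.018 and -0.66. RefSeq names impdh1a 110490583 as impdh1b, so the copy letter differs between the sources. A further pair of rows, impdh1a 110521614 and impdh1a 110496199, reached at most 0.0862 normalised FPKM in any library and was not tested.

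Of the IMPDH2 rows, impdh2 110492316 was at 10.6, 11.7 and 9.77 normalised FPKM at day 1 and at 5.20, 3.79 and 3.83 at day 90. Each library of day 90 was below each of day 1, and the row fell by 1.32 on the log2 scale (SE 0.15, adjusted p = 3.9e-05). The more abundant row impdh2 110532085 was at 22.5, 21.9 and 23.2 at day 1 and at 23.1, 17.8 and 16.1 at day 90, where replicate 1 lay among the day 1 libraries. It did not pass (-0.24, SE 0.14, adjusted p = 0.142), but was called lower without day 90 replicate 1 (-0.42, adjusted p = 0.00423). Summed, IMPDH1 rose from 31.4 ± 0.613 to 63.9 ± 1.28 (SD, n = 3; edgeR adjusted p = 2.29e-05), and IMPDH2 fell from 33.2 ± 0.369 to 23.3 ± 4.41 (SD, n = 3; edgeR adjusted p = 0.00503). With epidermis scaling the IMPDH1 total was at -0.28 and did not pass.

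Whatever the scaling, the balance of the 2 dehydrogenases shifted toward IMPDH1. The ratio of summed IMPDH1 to summed IMPDH2 was 0.962, 0.913 and 0.963 at day 1 and 2.30, 2.96 and 3.13 at day 90. The ages differed 2.93-fold in their geometric means. At day 1 the enzymes stood at nearly equal levels in every library, and at day 90 IMPDH1 was the more abundant in every library.

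GMPS, the GMP synthetase that completes the branch, had a pair of rows. GMPS 110503416 was at 7.39 ± 0.709 at day 1 and 7.57 ± 0.938 at day 90 (SD, n = 3; log2 fold change 0.15, edgeR adjusted p = 0.267). The assembled locus MSTRG.38188, named GMPS, was at 3.39, 3.23 and 3.64 normalised FPKM at day 1 and at 4.86, 4.12 and 3.80 at day 90. Its libraries did not overlap, by a narrow margin, and the log2 fold change of 0.32 passed (SE 0.12, adjusted p = 0.0376). The call was lost with DESeq2 (0.29, adjusted p = 0.0677) and when any 1 of 4 libraries was left out (adjusted p of 0.0823 to 0.13), and the direction turned with library size (-0.080), ribosomal (-0.27) and epidermis scaling (-0.98). In the authors' deposited table its log2 value was -0.071 with a false discovery rate of 0.0494. Neither GMPS row nor their sum (log2 fold change 0.24, adjusted p = 0.0911) had a direction that holds under all the scalings.

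**Figure D4:**
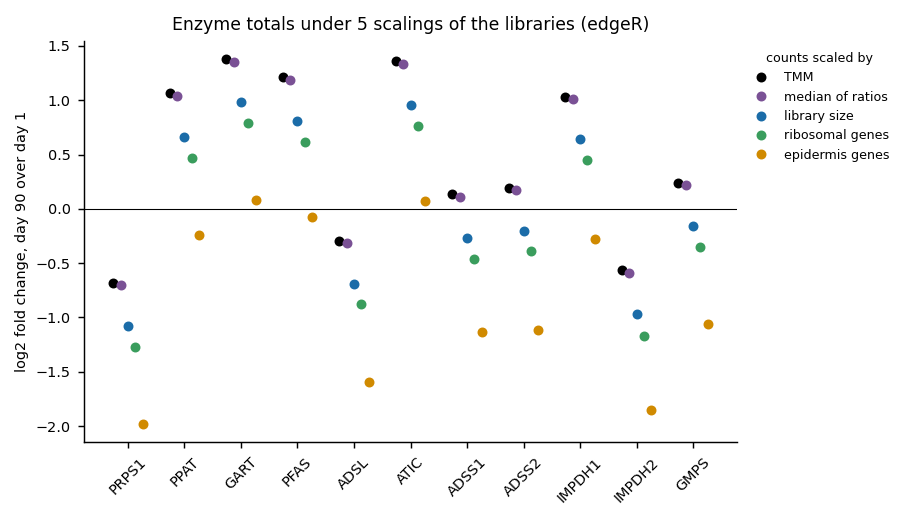
Log2 fold change of the summed rows of each enzyme, day 90 over day 1, from edgeR with the counts scaled in 5 ways. A scaling shifts all enzymes by nearly the same amount, so their order is kept by construction. GART and ATIC are above 0 in all 5 scalings, and PFAS, PPAT and IMPDH1 in all but the epidermis scaling. PRPS1, IMPDH2 and ADSL are below 0 in all 5.

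The treatment of reads shared by near-identical copies is not stated, which leaves the values of single copies uncertain. Summing the rows of an enzyme removes that dependence if each read was counted once. Rows with equal counts in every library, such as PRPSAP2 110517295 and 118959010, occur in the table, and whether their reads were counted more than once was not tested. Of the 11 enzyme totals, 5 rose and 2 fell, where 32.5% of the rows of the summed table rose and 35.4% fell. The totals that rose were ATIC (log2 fold change 1.36), GART (1.38), PFAS (1.21), PPAT (1.06) and IMPDH1 (1.03). PRPS1 (-0.68) and IMPDH2 (-0.57) fell, and ADSL (-0.29), ADSS1 (0.14), ADSS2 (0.19) and GMPS (0.24) did not pass. The ADSS1 total holds adss1a and adss1b, without the adss1c rows. Epidermis scaling holds the epidermis list level at its median, although 79 of its 117 tested rows rose with TMM. Under it, 0 totals rose and 6 fell.

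PPAT, GART, PFAS and ATIC, which lie between PRPP and IMP, gained on ADSS1, ADSS2, GMPS, IMPDH1 and IMPDH2 of the AMP and GMP branches. ADSL, which acts on the way to IMP and on the AMP branch, was left out of both sums. Its own total went from 45.9 ± 6.36 to 37.6 ± 7.28 normalised FPKM (SD, n = 3) and did not pass the edgeR test. The AIRC rows, outside the member rule, were also left out. Summed, they were at 43.9 ± 1.26 normalised FPKM at day 1 and 149 ± 12.5 at day 90 (SD, n = 3). A ratio with ADSL or AIRC among the enzymes to IMP was not computed. In all these ratios ADSS1 stands for adss1a and adss1b, without the adss1c rows, which lie outside the member rule. Summed, the adss1c rows went from 32.6 ± 4.86 to 11.0 ± 7.89 normalised FPKM (SD, n = 3). A ratio with the adss1c rows was not computed. The summed level of PPAT, GART, PFAS and ATIC was 0.390, 0.400 and 0.366 times that of ADSS1, ADSS2, GMPS, IMPDH1 and IMPDH2 at day 1. At day 90 it was 0.818, 0.833 and 0.706 times. The upper enzymes went from 64.3 ± 1.54 to 157 ± 25.2 normalised FPKM and the lower ones from 167 ± 5.22 to 199 ± 19.7 (SD, n = 3). The ratio of summed ADSS2 to summed adss1a and adss1b moved little by comparison, from 3.40 ± 0.644 to 3.61 ± 1.21 (SD, n = 3). Its libraries overlapped, and it says nothing of ADSS1 with the adss1c rows. The summed IMPDH rows were 0.708 ± 0.0438 times the summed ADSS1 and ADSS2 rows at day 1 and 0.877 ± 0.0547 times at day 90 (SD, n = 3), without overlap. These ratios were chosen after the levels had been seen and are descriptions without a test. With 3 libraries against 3, an exact permutation test could not go below p = 0.1.

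**Figure D5:**
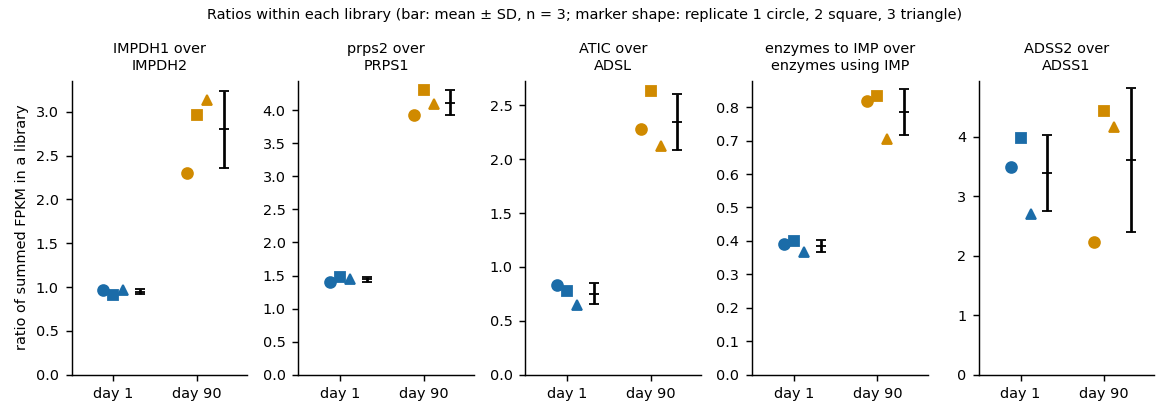
Ratios of summed FPKM within each library, with blue for day 1 and orange for day 90, bars for the mean ± SD (n = 3) and marker shape for the replicate. IMPDH1 over IMPDH2, prps2 over PRPS1, ATIC over ADSL, and enzymes to IMP over enzymes using IMP are separated between the ages, while ADSS2 over ADSS1 overlaps. Enzymes to IMP are PPAT, GART, PFAS and ATIC, without ADSL and without the AIRC rows. ADSS1 is adss1a and adss1b, without the adss1c rows. Enzymes using IMP stands for ADSS1, ADSS2, GMPS, IMPDH1 and IMPDH2, although GMPS acts after IMP dehydrogenase and not on IMP.

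Salmonids carry many genes in pairs left from a whole-genome duplication in their ancestry. In the annotation of USDA_OmykA_1.1, some copies of an enzyme lie beside copies of the same neighbouring gene. Whether these pairs date from that duplication was not tested. Both ATIC rows lie next to FN1 and MNX1 copies, the adss1a and adss1b rows next to INF2 and AKT1, and the ADSS2 rows 110509981 and 110533991 next to STX5 and EHD1. Of PRPS1, rows 110533748 and 110537373 share znf711 and NEXMIF as neighbours, and rows 110489146 and 110504558 share FRMPD3. The impdh2 rows share Arih2. In all there were 7 pairs of tested members with a shared neighbour. In 7 of 7 the ratio of the copies within a library did not overlap between the ages. Among pairs of tested copies of an enzyme with no shared neighbour found, some ratios overlapped between the ages. These were the pairs of ADSL and of GMPS, adss2 110499292 with ADSS2 110533991, and PRPS1 110489146 with 110533748 and 110504558 with 110537373. The other such pairs, all of ADSS2, PRPS1 or IMPDH1, did not overlap. The assembled loci MSTRG.34849 and MSTRG.38188 have no gene number by which to look up neighbours. Both tested impdh1a rows lie beside non-coding genes without a symbol in the deposited table. For pairs with these rows a shared neighbour could not have been found. Pairs with and without a shared neighbour therefore cannot be set against each other. Over pairs of rows of the whole table, the share was not computed. For levels of single rows, a different measure, the ages did not overlap in 73.2% of all rows tested.

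Among the pairs with a shared neighbour, the largest shifts were in PRPS1 and IMPDH2. The log2 ratio of the copies changed by -1.09 and -1.07, too close to rank. The level of 110489146 was 0.531 ± 0.0576 times that of 110504558 at day 1 and 0.254 ± 0.0655 times at day 90 (SD, n = 3). In IMPDH2, 110492316 was 0.476 ± 0.0575 times 110532085 at day 1 and 0.225 ± 0.0125 times at day 90 (SD, n = 3). In each pair the first copy fell by more than 1 on the log2 scale, while the second fell less in PRPS1 and did not pass in IMPDH2. ATIC 110527222 went from the more abundant copy at day 1 (1.12 ± 0.0913 times 110527226) to the less abundant at day 90 (0.717 ± 0.113 times, SD, n = 3). PPAT moved less, with 110521685 at 0.379 ± 0.0254 times 110524565 at day 1 and 0.477 ± 0.0483 times at day 90 (SD, n = 3). The adss1b row went from 1.92 ± 0.0924 to 1.17 ± 0.285 times adss1a (SD, n = 3), with day 90 replicate 1 the lowest at 0.841. Among all members, 16 of 24 had ages that did not overlap in the level of the row, where 73.2% of all rows tested did not. The share of members was thus not above that of all rows.

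Of 16 iridophore marker rows tested, 14 rose and 0 fell, and of the 14 that are not IMPDH1 rows 12 rose. Their share of counts without IMPDH1 was 0.0116 to 0.0138% at day 1 and 0.0887 to 0.0987% at day 90, with no row for ltk or pnp4. Markers of other cell types rose as well. Of melanophore rows 15 of 21 rose and 6 fell (0.0436 to 0.0476% of counts at day 1, 0.170 to 0.189% at day 90), of xanthophore rows 6 of 10 rose and 1 fell (0.0104 to 0.0123% and 0.0382 to 0.0442%), and of immune cell rows 15 of 17 rose and 1 fell (0.0227 to 0.0307% and 0.0920 to 0.115%). Cell cycle markers, of which 16 of 28 rose and 2 fell, held 0.196 to 0.203% at day 1 and 0.193 to 0.212% at day 90, with no row for aurka, birc5 or tpx2. The immune list had no row for cd4, cd79b, cd8a, coro1a, ighm, lyz or mpx. The xanthophore list had none for aox5, csf1r, gch2 or slc2a15. The members themselves held 0.101 to 0.102% of counts at day 1 and 0.102 to 0.114% at day 90. The part of any of these cell populations in the enzyme values was not tested.

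Salvage enzymes, which recover purine bases and nucleosides or interconvert nucleotides, were the largest related list. Of 39 rows tested, 15 rose and 8 fell, where 32.5% of all rows tested rose and 35.4% fell. The same background applies to the breakdown, folate, pyrimidine and ribonucleotide reductase lists that follow. The assembled locus MSTRG.27694, named Pnp (purine nucleoside phosphorylase, which frees guanine and hypoxanthine from their nucleosides), was at 8.51, 8.27 and 8.30 normalised FPKM at day 1 and at 110, 113 and 114 at day 90 (log2 fold change 3.75, adjusted p = 2.24e-08). AMPD3 110524028, an AMP deaminase that returns AMP to IMP, rose from 2.31 ± 0.051 to 14.7 ± 0.635 (SD, n = 3; log2 fold change 2.63, edgeR adjusted p = 7.55e-08). Another deaminase, AMPD2 110528095, fell from 5.49 ± 0.162 to 1.96 ± 0.0318 (SD, n = 3; edgeR adjusted p = 1.26e-06). The adenylate kinase Ak6 110536429 fell from 8.02 ± 0.203 to 3.72 ± 0.306 (SD, n = 3; edgeR adjusted p = 3.34e-05). These 2 deaminase rows thus moved in opposite directions.

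Of the purine breakdown list, 4 of 14 rows rose and 4 fell. The row urah 110506594, a hydrolase acting after urate oxidase, rose from 6.14, 6.69 and 6.94 normalised FPKM to 95.1, 89.5 and 76.7 (log2 fold change 3.72, adjusted p = 4.98e-08). Urate oxidase itself, uox 110521955, was at 3.39, 4.58 and 3.64 at day 1 and had 0 counts in each library of day 90, which is at least 61.8-fold lower with the same floor. Of 42 liver and yolk marker rows tested, 35 fell and 5 rose, and 19 of the 51 rows on that list had 0 counts at day 90, while the list as a whole held 0.215 to 0.351% of counts at day 1 and 0.301 to 0.355% at day 90. That list had no row for apoa4, and its part in the uox value was not tested. NT5E 110498125, a cell-surface nucleotidase, rose from 2.41 ± 0.33 to 5.90 ± 1.84 (SD, n = 3; edgeR adjusted p = 0.000599), a call lost with ribosomal scaling (0.73, adjusted p = 0.0575) and with epidermis scaling (-0.057). NT5C2 MSTRG.6764, a cytosolic nucleotidase, fell from 9.56 ± 1.46 to 3.79 ± 0.692 (SD, n = 3; edgeR adjusted p = 8.48e-05).

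GART and ATIC take one-carbon units from folate. Of 23 rows of folate and serine enzymes, 8 rose and 9 fell. MTHFD1 110497985, which makes the formyl folate that GART and ATIC use, rose from 11.1 ± 1.04 to 30.2 ± 5.61 (SD, n = 3; edgeR adjusted p = 2.15e-05), a call lost with epidermis scaling (0.15). FTCD 110495908, of histidine breakdown, was at 3.15, 5.33 and 5.58 at day 1 and at 0.0363, 0 and 0.0655 at day 90, a ratio of 139 with a 95% counting interval of 47.2 to 675. The liver and yolk markers that fell, given with uox, moved with this row too, and their part in it was not tested. PSPH 110503884, the last enzyme of serine synthesis, fell from 14.8 ± 0.43 to 6.05 ± 0.464 (SD, n = 3; edgeR adjusted p = 9.61e-06).

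Among pyrimidine enzymes, 6 of 23 rows rose and 7 fell. With median-of-ratios factors or DESeq2, 4 rose and 7 fell. TK1 100301667, a thymidine kinase, rose from 22.1 ± 0.665 to 42.1 ± 2.96 (SD, n = 3; edgeR adjusted p = 2.9e-05) and ctps1 110519510, a CTP synthase, from 5.72 ± 0.205 to 11.5 ± 1.48 (SD, n = 3; edgeR adjusted p = 5.74e-05), with both below 0 under epidermis scaling (-0.38 and -0.29). The uridine-cytidine kinases uck2a 110524694 (log2 fold change -1.75) and uck2b 110530771 (-1.45) fell. Ribonucleotide reductase, which makes deoxynucleotides, had 2 of 5 rows higher and 2 lower. The catalytic subunit rose in rrm1 110533741 (37.1 ± 0.552 to 55.1 ± 7.60, SD, n = 3; edgeR adjusted p = 0.00301) and fell in rrm1 110537378 (15.0 ± 0.642 to 10.9 ± 0.27, SD, n = 3; edgeR adjusted p = 0.00179). The small subunit rrm2 110529451, the most abundant of these rows, rose from 120 ± 3.28 to 194 ± 20.2 (SD, n = 3; edgeR adjusted p = 0.000826), while Rrm2b 110487817 fell by 0.87 on the log2 scale (edgeR adjusted p = 0.00268). The rise of rrm1 110533741 was lost with library size (0.17) and turned with ribosomal (-0.021) and epidermis scaling (-0.73), and that of rrm2 was lost with ribosomal (0.10) and turned with epidermis scaling (-0.60).

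The rows outside the members whose profile over the 6 libraries was most like that of the summed members were alyref 110538528 (Pearson r = 0.9998), Paat 110491422 (0.9995) and the mitochondrial gene ND3 (0.9993). These values describe 6 libraries that fall into 2 ages, and 5014 rows had an r above 0.9.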

How the data were processed

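RNA-seq gave 6 skin libraries, whose age and replicate number were read from the titles. Bowtie2 2.2.8 and TopHat2 2.1.1 are listed, with no step stated, per the submitters' processing notes. No counting tool, genome build, strand setting or treatment of reads matching several genes is stated. The authors deposited, per the file headers, a count and an FPKM per gene and library, mean FPKM per age, a log2 fold change, and a p-value with its false discovery rate, whose test is not stated.

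All 24 members with an NCBI gene number matched the table of USDA_OmykA_1.1, used for names and neighbours alone, and 2 members were assembled loci. Rows with an FPKM of at least 1 in at least 3 of 6 libraries were tested (29436 rows, 98.4% to 99.3% of counts). Counts were fitted with edgeR 4.0.16 (R 4.3.3) using TMM factors, quasi-likelihood tests, age as sole term, and Benjamini-Hochberg adjustment over all rows at 0.05. SE is the log2 fold change over the square root of F. Tested members averaged 253 to 1920 counts. TMM factors ran from 0.826 to 1.16. A row at 0 throughout an age was given a floor of 3 counts summed over it. Floors and intervals cover counting error only. The scripts were tested on simulated data, and for the simulated comparison of day 90 with day 1 over 29436 genes edgeR found 62 of 100 2-fold changes and 97 of 100 4-fold changes. Alternatives used DESeq2 1.42.0, limma 3.58.1 on log2(FPKM + 1) and log2(FPKM + 0.1), other scalings and filters, a replicate block, and each library left out.

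The members and lists were chosen with earlier results of these data known. All tested members are named. From each other list, up to 2 rows with the smallest adjusted p in each direction are named, and the 3 rows most like the summed members. One row that this rule names is not reported here.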

Additional observations from a re-analysis of the deposited data

How the results depend on the processing

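Counts of members higher were 7 to 12 under every alternative but epidermis scaling (1), and totals higher were 5 or 6 but for epidermis scaling (0). Members lower numbered 5 with TMM, 12 with library size alone, 13 with ribosomal scaling, 15 with epidermis scaling, 13 with either limma fit, 8 with an FPKM of at least 5, and 5 to 9 with 1 library left out, the 9 without day 90 replicate 1. Totals lower numbered 2 with TMM, 5 with ribosomal scaling, 6 with epidermis scaling, 4 with either limma fit, and 2 to 3 with 1 library left out. Taking AIRC and adss1c as members gave 12 higher and 7 lower. Of the related lists, rows higher and lower numbered 3 and 3 for PRPP synthetase subunits, 15 and 8 for salvage, 4 and 4 for breakdown, 8 and 9 for folate, 6 and 7 for pyrimidines and 2 and 2 for ribonucleotide reductase. In that order they were 1 and 4, 11 and 12, 3 and 7, 5 and 12, 3 and 11, and 1 and 2 with library size, as with limma but for 6 folate rows higher. With ribosomal scaling they were 1 and 4, 9 and 14, 1 and 8, 3 and 12, 2 and 13, and 0 and 3. With epidermis scaling they were 0 and 8, 5 and 27, 1 and 11, 1 and 19, 0 and 19, and 0 and 5. Breakdown had 2 and 2 with an FPKM of at least 5 and 5 and 7 with no filter. Pyrimidine rows higher numbered 4 with median-of-ratios factors, DESeq2, an FPKM of at least 5 or the replicate block. With 1 library left out they numbered 4 to 6. Folate rows lower numbered 6 with an FPKM of at least 5 or the replicate block, and 6 to 9 with 1 library left out.

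The scalings differ in which genes are held level. Both limma fits used the deposited FPKM, scaled to library size without a TMM factor, so they are not separate from the library size setting. The median of all rows was -0.33 with limma at a pseudocount of 1, -0.41 at 0.1 and -0.43 with library size alone. The cause of the other changes was not tested.

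Log2 fold changes that turned with library size alone were ADSS2 110509981 (-0.25), GMPS 110503416 (-0.25), GMPS MSTRG.38188 (-0.080), and the totals of ADSS1 (-0.27), ADSS2 (-0.20) and GMPS (-0.16). With ribosomal scaling these were -0.43, -0.44, -0.27, -0.46, -0.39 and -0.35, and prps2 110527434 (-0.073) and rrm1 110533741 (-0.021) turned too. With limma at a pseudocount of 1 they were -0.23, -0.31, -0.057, -0.29, -0.26 and -0.24, and at 0.1 they were -0.24, -0.35, -0.071, -0.30, -0.26 and -0.26. With epidermis scaling they were -1.17, -1.15, -0.98, -1.13, -1.12 and -1.06. Epidermis scaling also turned adss1a (-0.59), ATIC 110527222 (-0.24), impdh1a 110490583 (-0.018) and 110499883 (-0.66), Pfas (-0.078), PPAT 110521685 (-0.0064) and 110524565 (-0.35), prps2 110495813 (-0.039) and 110527434 (-0.80), NT5E (-0.057), TK1 (-0.38), ctps1 (-0.29), rrm2 (-0.60), rrm1 110533741 (-0.73), and the totals of IMPDH1 (-0.28), PFAS (-0.078) and PPAT (-0.24). With an FPKM of at least 5, ADSS2 110509981 (-0.0062), GMPS 110503416 (-0.0091) and the ADSS1 total (-0.028) turned. With 1 library left out, adss1b ranged from -0.49 to 0.0047, turning without day 1 replicate 3, and the ADSS1 total from -0.30 to 0.33, turning without day 90 replicate 1.

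Same-numbered replicates of the ages deviated with correlations of -0.12, 0.0048 and -0.17, which gave no sign of pairing by number. Deviations among 3 libraries sum to 0 in each age, so these values cannot settle whether the numbers pair the samples. With the replicate number as a block, 9 members were higher and 5 lower, and 18555 of all rows were called in place of 19982. The replicate block ended 1 member call, that of GMPS MSTRG.38188 (0.31, edgeR adjusted p = 0.073). Tested members averaged at least 253 counts. In the simulation of day 90 against day 1, 62 of 100 2-fold changes were found. It changed 100 genes at each fold out of 29436, where 67.9% of rows were called in the data. The share found therefore does not measure the power for the members, and small changes can be missed.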
